A study of Mus musculus with 8 samples.

Results

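Guanylate-binding proteins (GBPs) are large GTPases that cells make in response to interferons (IFNs). The 10 mouse GBP genes examined were Gbp2, Gbp2b, Gbp3, Gbp5 and Gbp7, which lie in a cluster on chromosome 3, and Gbp4, Gbp6, Gbp8, Gbp9 and Gbp10, which lie in a cluster on chromosome 5. They were found by matching the Ensembl identifiers of the count table to these symbols, and they are 10 of the 55487 genes in that table. RNA was sequenced from 8 subcutaneous tumors of Lewis lung carcinoma (LLC), a mouse lung cancer line, grown in young adult female C57BL/6J mice and collected on day 12. Of these, 4 tumors came from wild-type LLC cells and 4 from Ago2 knock-out (ΔAgo2) cells as labelled, each tumor from its own mouse, and no treatment is given for either group. The ΔAgo2 cells were made with a lentiviral CRISPR guide and then cloned from single cells, so the genotype rests on cloned cells, and the host cells inside each tumor kept Ago2. Comparing the GBP genes between the genotypes addresses how far an IFN-inducible gene family differs in tumors whose cancer cells lack this protein of RNA interference.

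The GBPs are among the genes most strongly induced by IFNγ, and type I IFNs induce them too. IFNγ binds its receptor (Ifngr1 and Ifngr2), the kinases Jak1 and Jak2 pass the signal on, and the factors they activate bind gamma-activated sequences (GAS), while complexes that hold Stat2 and Irf9, and factors such as Irf1, bind IFN-stimulated response elements (ISRE). The proteins assemble on vacuoles and bacteria inside the cell, open them, and feed bacterial products to inflammasomes, and they work together with the immunity-related GTPases. In tumors both cancer cells and infiltrating macrophages can make them.

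Before the comparisons, some features of the libraries bear on every value below. Total counts ran from 7903288 to 268564145 per library, the extremes being wild-type tumor 4 and ΔAgo2 tumor 4. Levels are given as CPM, counts scaled to library totals adjusted by TMM, a correction for differences in composition. A count of 0, taken to allow up to 3 counts, left room for 0.43 CPM in wild-type tumor 4 and 0.0105 CPM in ΔAgo2 tumor 4, by counting error alone. All libraries carried batch label 1, so no comparison within batches could be made. Listed by tumor number from 1 to 4, as in all that follows, the Ago2 transcript measured 129.8, 195, 151.2 and 138 CPM (wild-type) against 118, 354, 215 and 269.9 CPM (ΔAgo2), a log2 fold change of 0.64 ± 0.31 (SE) with an edgeR adjusted p of 0.205. The groups overlapped and the transcript was not lower in the tumors labelled ΔAgo2, so it does not check the labels. In 2 of 22 alternatives it passed as higher in ΔAgo2 tumors. These were limma voom (log2 0.87, adjusted p = 0.014) and edgeR without ΔAgo2 tumor 1 (log2 0.85, adjusted p = 0.0441). For the knock-out in the LLC cells the study refers to a Western blot of Ago2 protein. An edited gene can still be transcribed, and the host cells transcribe it as well.

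The promoters of the chromosome 3 members are shown because they hold the elements through which IFNs are known to act. The lines below give the 250 bases before an annotated start of each gene, 5′ to 3′ on the plus strand, from RefSeq on GRCm38.p6. For Gbp5 the window lies inside the gene as GENCODE M21 places it, which begins at chr3:142493978. Each position is that of the full 300-base window, which runs on for 50 bases past the start. Capitals mark the ISRE core (GAAANNGAAA or its reverse complement TTTCNNTTTC) and the GAS core (TTCNNNGAA, which reads the same on both strands).
Gbp5 (chr3:142496684-142496983): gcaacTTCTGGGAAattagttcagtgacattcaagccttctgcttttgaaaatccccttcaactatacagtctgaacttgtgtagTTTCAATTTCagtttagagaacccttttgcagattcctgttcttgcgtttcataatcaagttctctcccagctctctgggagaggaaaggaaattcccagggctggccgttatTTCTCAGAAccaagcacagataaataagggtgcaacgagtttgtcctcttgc
Gbp7 (chr3:142530086-142530385): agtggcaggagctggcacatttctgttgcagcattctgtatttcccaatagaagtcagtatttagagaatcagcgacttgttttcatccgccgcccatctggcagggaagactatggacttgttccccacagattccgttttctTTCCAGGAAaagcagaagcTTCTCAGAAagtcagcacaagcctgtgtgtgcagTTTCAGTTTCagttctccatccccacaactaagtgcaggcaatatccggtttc
Gbp3 (chr3:142559794-142560093): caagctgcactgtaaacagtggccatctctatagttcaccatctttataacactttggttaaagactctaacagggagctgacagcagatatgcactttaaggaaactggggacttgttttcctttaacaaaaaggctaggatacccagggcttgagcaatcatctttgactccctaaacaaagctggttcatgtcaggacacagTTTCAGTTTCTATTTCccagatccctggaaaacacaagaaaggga
Gbp2b (chr3:142594597-142594896): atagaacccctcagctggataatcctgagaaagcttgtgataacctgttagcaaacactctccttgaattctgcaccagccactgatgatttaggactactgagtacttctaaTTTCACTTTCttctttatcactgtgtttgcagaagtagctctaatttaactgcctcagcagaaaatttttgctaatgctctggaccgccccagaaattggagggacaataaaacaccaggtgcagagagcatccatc
Gbp2 (chr3:142620413-142620712): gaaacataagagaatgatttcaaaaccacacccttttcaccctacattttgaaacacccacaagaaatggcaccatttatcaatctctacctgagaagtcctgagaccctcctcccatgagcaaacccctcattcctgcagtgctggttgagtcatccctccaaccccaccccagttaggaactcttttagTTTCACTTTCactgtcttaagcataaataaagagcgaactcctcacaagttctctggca
All 5 genes had an ISRE core in such a window, against 3.44% of 32851 mouse promoters of the same length. For Gbp3 a second annotated window held no match to either core. In Gbp2 the match lay 59 to 50 bases before the start, in Gbp7 53 to 44 bases before it, and in Gbp3 a pair of overlapping matches filled the bases from 45 to 30 before it. The matches of Gbp2b and Gbp5 lay further out, beginning 137 and 165 bases before the start. Only Gbp5 and Gbp7 among the 5 also held GAS cores, 2 each, against 8.30% of all promoters, and 0.454% of all promoters held both kinds. A match is a run of letters and not evidence of binding. The table of promoters had 6 windows for the family, all on chromosome 3. Windows of Gbp4, Gbp6, Gbp8, Gbp9 and Gbp10 were not used here.

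On the mouse genome (GRCm38, GENCODE M21), the chromosome 3 cluster covers chr3:142493978-142638008, 144 kb, with its genes on the plus strand in the order Gbp5, Gbp7, Gbp3, Gbp2b and Gbp2. The chromosome 5 cluster covers chr5:105014150-105293698, 279.5 kb, on the minus strand, with Gbp8, Gbp9, Gbp4, Gbp10 and Gbp6 in ascending coordinates. The neighbour Gbp11, annotated as a polymorphic pseudogene, had 0 counts in 4 libraries and at most 0.0937 CPM in the others.

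**Figure D1:**
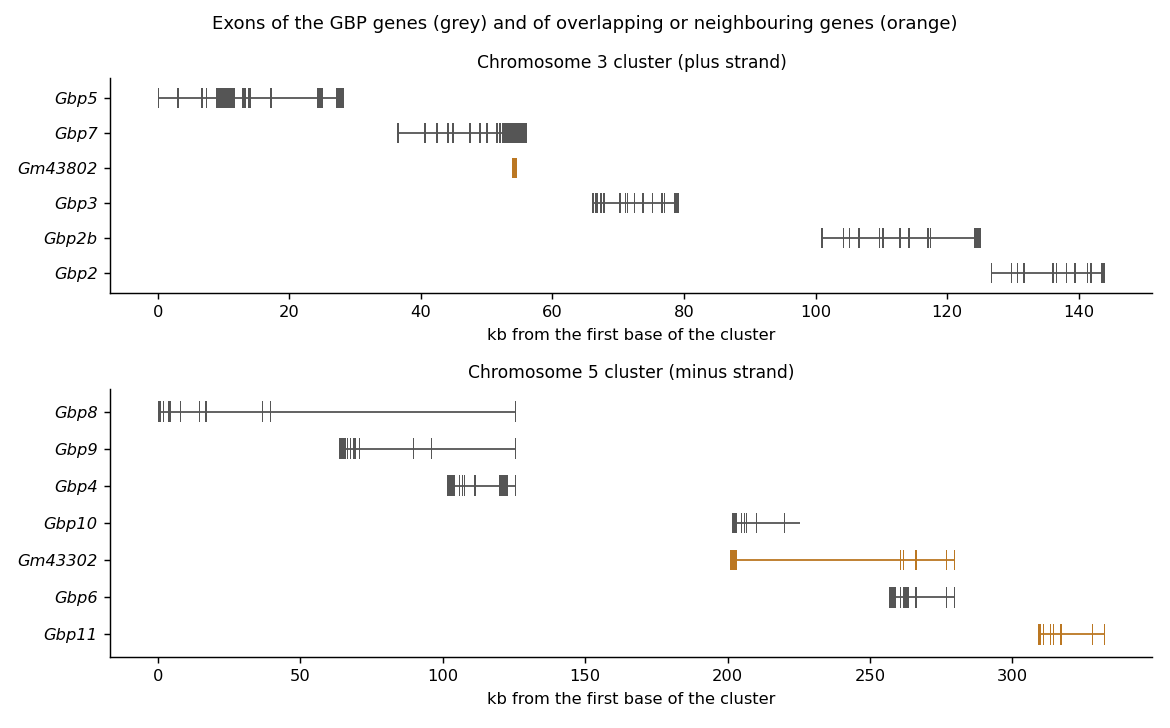
Exons (blocks) and introns (lines) of the GBP genes in grey and of the overlapping or neighbouring genes in orange, by distance in kb from the first base of each cluster. The exons of Gm43302 fall on both Gbp10 and Gbp6, and Gm43802 lies inside Gbp7.

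How well reads can be told apart differed between the clusters. On chromosome 5 the gene Gm43302 spans Gbp10 and Gbp6 and shares exons with both, covering 46.3% of the exonic bases of Gbp10 and 29.0% of those of Gbp6. Of the 100-base stretches of their transcripts, the length of a read, 73.5% in Gbp10 and 64.5% in Gbp6 also occurred in another gene. The same share was 10.01% in Gbp7, which holds the processed pseudogene Gm43802, 4.39% in Gbp8, under 2% in Gbp3, Gbp4, Gbp5 and Gbp9, and 0% in Gbp2 and Gbp2b. Gm43302 and Gm43802 were listed at 0 counts in all 8 libraries. Counts of Gbp6 and Gbp10 are thus uncertain, since how reads that match several genes were counted is not given in the sources used here.

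The coding sequences showed the same contrast. Gbp6 and Gbp10 were 98.4% identical over their aligned coding bases, and each was over 90% identical to Gbp4, Gbp8 and Gbp9. On chromosome 3 the closest members were Gbp2 and Gbp2b, at 82.5%, and Gbp3 and Gbp7, at 79.3%. The first 100 coding bases of the chromosome 5 members show how little separates them, with capitals at the bases that differ from Gbp6. Gbp10 and Gm43302 match Gbp6 at each of these bases.
Gbp6: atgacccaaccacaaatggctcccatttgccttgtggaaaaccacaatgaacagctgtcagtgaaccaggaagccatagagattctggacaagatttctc
Gbp4: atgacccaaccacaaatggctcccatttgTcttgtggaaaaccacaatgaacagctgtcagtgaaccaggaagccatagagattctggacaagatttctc
Gbp9: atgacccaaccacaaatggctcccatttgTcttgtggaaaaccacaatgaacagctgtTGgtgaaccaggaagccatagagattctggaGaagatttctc
Gbp8: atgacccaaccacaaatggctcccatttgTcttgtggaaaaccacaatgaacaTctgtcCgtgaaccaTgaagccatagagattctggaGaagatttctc
Gbp4 differed from Gbp6 at 1 of these bases, Gbp9 at 4 and Gbp8 at 5. Gbp2b differed from Gbp2 at 28 of the same 100 positions. Gbp4, Gbp8 and Gbp9 also share about 60 bases of a first exon, 125.3 kb from the first base of the cluster. Reads from those bases alone do not tell them apart.

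GBP transcripts were present in every tumor, and Gbp2 made up most of them. On the TPM scale as deposited, which corrects for gene length, the 10 genes summed to 136, 60.3, 55.7 and 36.9 TPM (wild-type) against 150.6, 275, 175 and 173 TPM (ΔAgo2). Every ΔAgo2 tumor thus lay above every wild-type tumor, although wild-type tumor 1 came close to ΔAgo2 tumor 1. The mean sum was 72.2 ± 43.7 TPM (SD, n = 4) in wild-type and 193 ± 55.5 TPM (SD, n = 4) in ΔAgo2 tumors. These are whole tumors, in which fewer cells of a type and less RNA per cell cannot be told apart.

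**Figure D2:**
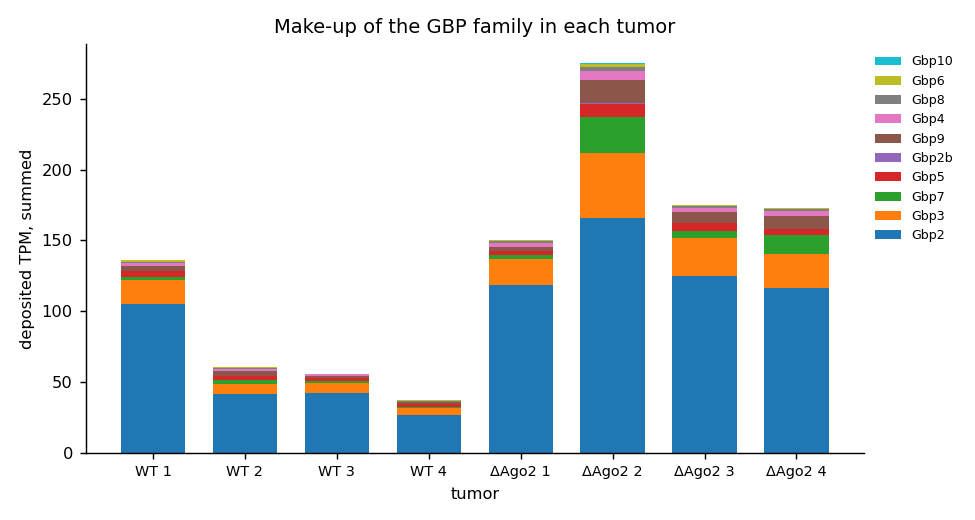
Deposited TPM of the 10 GBP genes, stacked for each of the 4 wild-type (WT) and 4 ΔAgo2 tumors. Gbp2 (blue) makes up between 60.2% and 78.5% of each bar, and the summed level runs from 36.9 TPM in WT 4 to 275 TPM in ΔAgo2 2.

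The order of the levels was steep. Gbp2, a GBP that gathers on parasite-containing vacuoles, averaged 53.8 ± 35.1 TPM in wild-type and 131 ± 23.1 TPM in ΔAgo2 tumors. Gbp3 followed at 8.97 ± 5.25 and 28.9 ± 12.0 TPM, and its range did not meet that of Gbp2 in either genotype. Next in wild-type tumors came Gbp5 (2.70 ± 0.96 TPM), Gbp9 (2.67 ± 1.37 TPM), Gbp7 (1.89 ± 0.81 TPM) and Gbp4 (1.12 ± 0.67 TPM), whose ranges overlapped between neighbours. Gbp8 and Gbp6 lay below 1 TPM in wild-type tumors, and Gbp2b, which encodes the protein known as Gbp1, and Gbp10 did not exceed 0.35 TPM in any tumor. In ΔAgo2 tumors Gbp7 followed Gbp3 at 11.7 ± 10.4 TPM, ahead of Gbp9 (9.13 ± 5.59 TPM) and Gbp5 (5.46 ± 2.62 TPM), followed by Gbp4 (3.94 ± 1.79 TPM), Gbp8 (1.54 ± 0.82 TPM) and Gbp6 (1.28 ± 0.63 TPM). From Gbp3 to Gbp6 the ranges of neighbours in this order overlapped, except those of Gbp4 and Gbp8. The lowest Gbp4 value (2.82 TPM) lay just above the highest Gbp8 value (2.77 TPM).

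**Figure D3:**
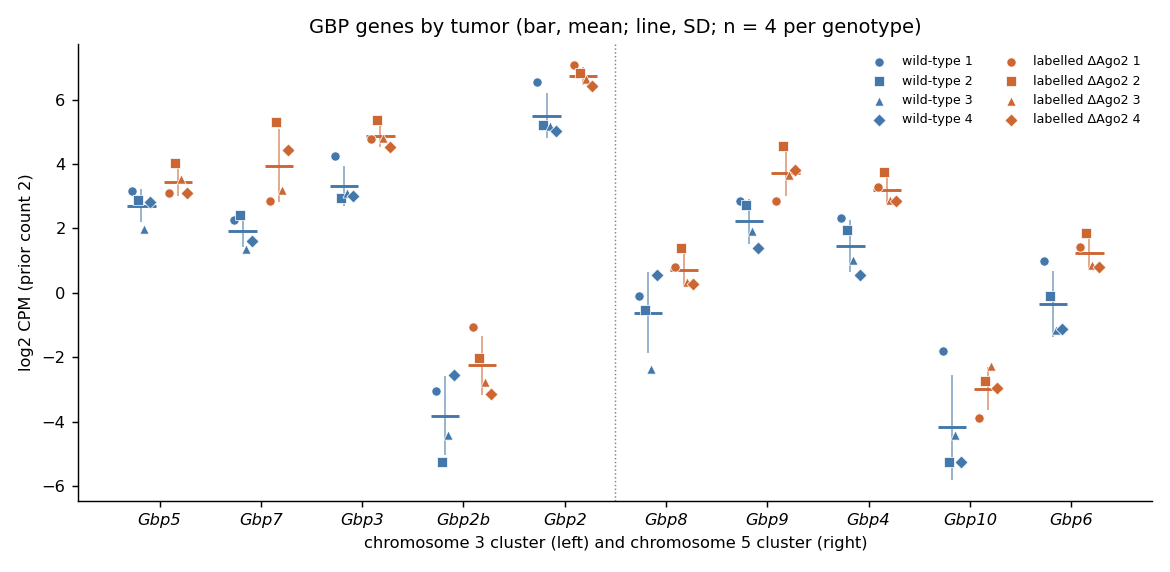
Normalised expression (log2 CPM, prior count 2) of each GBP gene in every tumor, wild-type in blue and ΔAgo2 in orange, with a marker for each replicate number, the mean (bar) and the SD (line), n = 4. The groups are apart for Gbp7, Gbp3 and Gbp4, touch for Gbp9 and overlap for the other genes.

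Between the genotypes, 8 of the 10 genes had enough counts to be tested, and Gbp2b and Gbp10 fell under the count filter. Of the 8, Gbp7 and Gbp3 rose in ΔAgo2 tumors, none fell, and 6 did not pass the test (edgeR quasi-likelihood test, Benjamini-Hochberg adjustment over 16061 genes, threshold 0.05). Over all genes tested 3.49% passed in either direction and 1.36% passed as higher and 2.12% as lower in ΔAgo2 tumors. At an unadjusted p under 0.05 there were 7 members higher and 0 lower by edgeR, and after adjustment DESeq2's Wald test gave 5 higher and 0 lower and limma voom 4 higher and 0 lower. Over all genes 13.7% were higher at an unadjusted p under 0.05 by edgeR (26.7% counting either direction), 6.52% of those with an adjusted p were called higher by DESeq2, and limma voom called 14.9% higher (27.9% counting either direction). The median log2 fold change of the 8 genes was 1.38, against 0.04 over all genes tested, and all 8 values were positive. For 4 of the 8 every ΔAgo2 tumor lay above every wild-type tumor in CPM, which held for 8.06% of all genes tested.

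**Figure D4:**
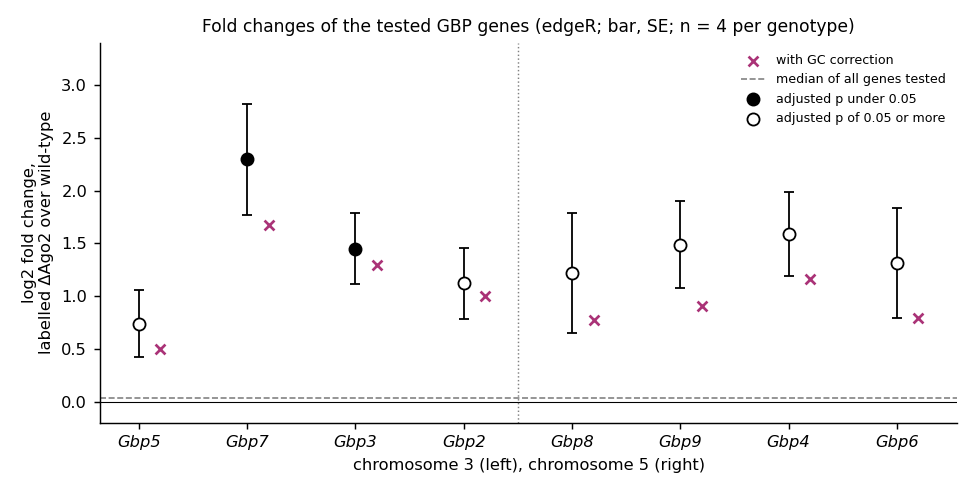
Log2 fold change (ΔAgo2 over wild-type, edgeR) of the 8 GBP genes tested, with its SE, filled where the adjusted p was under 0.05, and the value after a correction for GC content as a cross. All 8 lie above the median of all genes (dashed line, 0.04), from 0.74 for Gbp5 to 2.30 for Gbp7, and each cross lies below its circle.

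Gbp7, a GBP that limits bacteria and helps assemble the NADPH oxidase on their vacuoles, differed most. Its levels were 4.78, 5.34, 2.56 and 3.01 CPM (wild-type) against 7.16, 39.7, 9.16 and 21.5 CPM (ΔAgo2). All ΔAgo2 tumors were above all wild-type tumors, but ΔAgo2 tumors 2 and 4, the most deeply sequenced of the 8, stood well above the other two. The fold change was 4.91 (log2 2.30 ± 0.53, SE), with an edgeR adjusted p of 0.0434. When every library was thinned to the depth of the shallowest, the log2 fold change was 2.25 and the adjusted p 0.0409. With a correction for GC content it was 1.67 with an adjusted p of 0.0889. When 1 library was left out, the call remained only without ΔAgo2 tumor 1 (adjusted p = 0.0197), and without any of the other 7 it lay between 0.0515 and 0.121. Leaving out ΔAgo2 tumor 2 lowered the log2 value to 1.66.

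Gbp3, which also gathers on vacuoles, was the second gene to pass. It measured 19.1, 7.67, 8.55 and 8.02 CPM (wild-type) against 27.4, 41.0, 27.8 and 23.2 CPM (ΔAgo2). The groups did not overlap, and wild-type tumor 1 lay apart from the other wild-type tumors. The fold change was 2.73 (log2 1.45 ± 0.33, SE; edgeR adjusted p = 0.0439). It kept the call when tumor 1 of the wild-type group (adjusted p = 0.00797) or of the ΔAgo2 group was left out, and lost it without any of the other 6, where the adjusted p reached 0.136. Gbp3 and Gbp4 belong to an IFN signature that the study chose on these tumors, so their direction is not independent evidence.

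The other chromosome 3 members did not pass. Gbp2 measured 92.8, 36.8, 36.5 and 32.8 CPM (wild-type) against 135, 114, 99.3 and 86.1 CPM (ΔAgo2). Wild-type tumor 1 lay within the ΔAgo2 range, above ΔAgo2 tumor 4, so the groups overlapped by that tumor alone. The fold change was 2.18 (log2 1.12 ± 0.34, SE; edgeR adjusted p = 0.0856), and without wild-type tumor 1 it was 1.63 on the log2 scale with an adjusted p of 0.00883. Gbp5, which promotes assembly of the NLRP3 inflammasome, had 8.92, 7.29, 3.93 and 7.02 CPM in wild-type and 8.61, 16.4, 11.7 and 8.63 CPM in ΔAgo2 tumors. Its log2 fold change of 0.74 ± 0.32 (edgeR adjusted p = 0.171) was the smallest of the 8, and 2 of the 4 ΔAgo2 tumors lay below wild-type tumor 1. Gbp2b had 5, 0, 1 and 1 counts in wild-type and 22, 25, 4 and 25 counts in ΔAgo2 tumors, from 0 to 0.143 CPM and from 0.0875 to 0.451 CPM. Without the count filter its log2 fold change was 2.00 (edgeR adjusted p = 0.21), and with DESeq2 2.02 (adjusted p = 0.155).

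On chromosome 5 the largest difference was that of Gbp4, a reported inhibitor of the transcription factor IRF7. It measured 4.94, 3.81, 2.02 and 1.43 CPM (wild-type) against 9.62, 13.5, 7.34 and 7.11 CPM (ΔAgo2). The groups were apart, and the fold change was 3.01 (log2 1.59 ± 0.40, SE), yet the edgeR adjusted p of 0.056 missed the threshold. It passed when tumor 1 of the wild-type group (0.0365) or of the ΔAgo2 group (0.0498) was left out, and with DESeq2 (0.00228). With the GC correction the log2 fold change was 1.16 (edgeR adjusted p = 0.115), and without ΔAgo2 tumor 2 it was 1.35 (0.17). Gbp4 passed in 6 of 22 alternatives.

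Gbp9, found on parasite vacuoles like Gbp2, had 7.15, 6.58, 3.74 and 2.58 CPM in wild-type tumors and 7.16, 23.3, 12.6 and 14.1 CPM in ΔAgo2 tumors. Tumor 1 of either genotype had practically the same level, so in CPM the groups touched without overlapping. On the TPM scale they overlapped, with 3.04 TPM in ΔAgo2 tumor 1 against 3.95 and 3.62 TPM in wild-type tumors 1 and 2. The log2 fold change was 1.49 ± 0.41 (SE; edgeR adjusted p = 0.0693), and it passed without ΔAgo2 tumor 1 (0.0311) and with DESeq2 (0.00783). With the GC correction it was 0.91 (edgeR adjusted p = 0.179), and without ΔAgo2 tumor 2 it was 1.13 (0.203). Gbp9 passed in 4 of 22 alternatives. For Gbp6, which restricts bacteria, wild-type tumors ran from 0.42 to 1.97 CPM and ΔAgo2 tumors from 1.70 to 3.61 CPM, with a log2 fold change of 1.31 ± 0.52 (edgeR adjusted p = 0.145). Gbp8 ran from 0.168 to 1.43 CPM and from 1.19 to 2.60 CPM, with a log2 fold change of 1.22 ± 0.57 (edgeR adjusted p = 0.198). Both overlapped between the genotypes, Gbp6 through wild-type tumor 1 and Gbp8 through wild-type tumor 4, the shallowest library. Without wild-type tumor 1 the Gbp6 log2 fold change was 2.04 (edgeR adjusted p = 0.0504), the highest with 1 library left out. The lowest was 1.02. Gbp10 had 14, 0, 1 and 0 counts in wild-type and 2, 14, 6 and 29 counts in ΔAgo2 tumors, and most of the wild-type counts came from tumor 1.

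The clusters differed widely in level, and their shifts between the genotypes were of similar size. The median log2 fold change was 1.29 over the 4 chromosome 3 members tested and 1.40 over the 4 chromosome 5 members tested. With the GC correction these medians were 1.15 and 0.85. The tested members were poor in GC, with a median of 44.3% over their exons (42.5% to 47.8%) against 50.3% over the genes tested, and the part of GC content in their values was not tested beyond this correction. On the TPM scale the chromosome 3 genes summed to 67.4 ± 41.6 and 177 ± 47.0 TPM and the chromosome 5 genes to 4.84 ± 2.47 and 15.98 ± 8.67 TPM (SD, n = 4, wild-type and ΔAgo2). The chromosome 5 share of the family was 5.66%, 10.03%, 5.79% and 6.47% (wild-type) against 5.29%, 10.3%, 7.40% and 8.53% (ΔAgo2). The shares overlapped fully, at 6.99% ± 2.06 and 7.87% ± 2.09. The mean log2 CPM of the tested members was higher on chromosome 3 by 2.68 ± 0.31 in wild-type and 2.54 ± 0.14 in ΔAgo2 tumors, again with overlapping ranges. Neither contrast was tested, since it is a score over chosen genes.

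Within the chromosome 3 cluster the make-up was less constant. The ratio of Gbp7 to Gbp5, both in TPM and chosen after the values were seen, was 0.634, 0.866, 0.772 and 0.507 in wild-type tumors and 0.982, 2.87, 0.93 and 2.94 in ΔAgo2 tumors. The ratio was highest in ΔAgo2 tumors 2 and 4, the same tumors that carried the highest Gbp7. Gbp7 took from 1.79% to 4.49% of the family in wild-type and from 1.86% to 9.42% in ΔAgo2 tumors, whereas the share of Gbp3 stayed between 11.1% and 16.8% in all 8. Gbp2 took 73.2% ± 3.74 and 69.3% ± 7.64 (SD, n = 4).

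Several members had their highest or lowest level in the same tumor of a genotype. Among wild-type tumors, tumor 1 was highest for 6 of the 8 genes tested (and for 18.7% of all genes tested), and tumors 3 and 4 were lowest for 4 and 3 of them (25.3% and 36.0% of all genes). Among ΔAgo2 tumors, tumor 2 was highest for 7 of the 8 (35.4% of all genes), the exception being Gbp2, and tumors 4 and 1 were lowest for 5 and 3 (13.1% and 43.2% of all genes). ΔAgo2 tumor 4 therefore combined the second highest Gbp7 and Gbp9 with the lowest Gbp2, Gbp3, Gbp4, Gbp6 and Gbp8 of its group.

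The IFNγ signalling genes reported had a smaller median difference than the GBPs, a contrast that was not tested. Gene by gene the lists met, with Irf9 (0.76) above Gbp5 (0.74) in log2 fold change. Of 11 IFNγ signalling genes 10 were tested and 0 passed by edgeR, the unadjusted p was under 0.05 for 2 (each higher) and for 0 lower ones, and the median log2 fold change was 0.39. After adjustment DESeq2 called 0 of them, and limma voom called 2 higher and 1 lower, with 27.9% of all genes called by that tool. Ifng itself, the ligand, ran from 0.0953 to 0.716 CPM in wild-type and from 0.101 to 0.718 CPM in ΔAgo2 tumors, and fell under the count filter.

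The remaining signalling genes spread to both sides of 0. The ISRE-binding subunits Irf9 and Stat2 had log2 fold changes of 0.76 ± 0.28 and 0.48 ± 0.28, and the kinases Jak2 and Jak1 of 0.62 ± 0.31 and 0.53 ± 0.30. The receptor chains went opposite ways, with 0.55 ± 0.22 for Ifngr2 and -0.33 ± 0.16 for Ifngr1. For Ifngr2 all ΔAgo2 tumors lay above, and for Ifngr1 all lay below, the wild-type tumors in CPM. On the TPM scale Ifngr1 overlapped, from 69.9 to 103.2 TPM in wild-type and from 58.9 to 99.4 TPM in ΔAgo2 tumors. Irf2 stood at 0.30 ± 0.18 and Irf1, an IFNγ-induced factor, at 0.12 ± 0.25, whose sign turned when single libraries were left out. Irf8, a myeloid factor, stood at -0.13 ± 0.25, a sign that turned with the GC correction and on the TPM scale. Socs1, the feedback inhibitor, stood at -0.62 ± 0.40, and at 0.01 with the GC correction. The edgeR adjusted p-values of the 10 genes lay between 0.124 and 0.793.

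**Figure D5:**
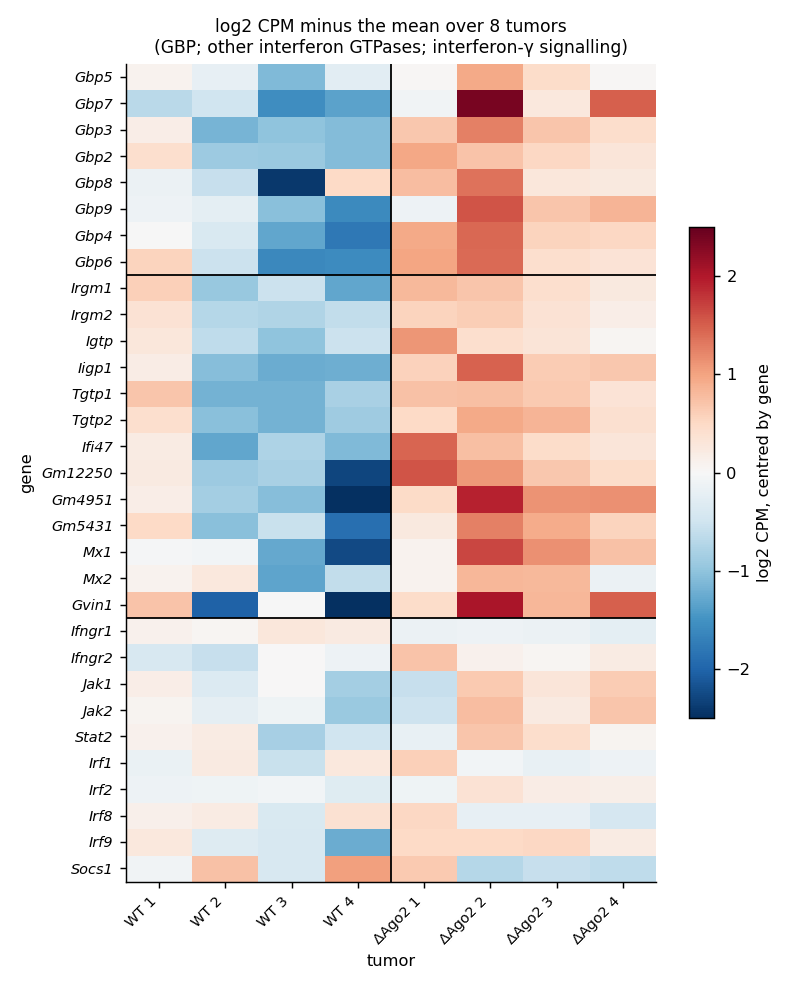
Log2 CPM of each gene minus its mean over the 8 tumors, for the GBP genes tested (top), 13 other IFN-inducible GTPases (middle) and 10 IFNγ signalling genes (bottom), with wild-type tumors left and ΔAgo2 tumors right of the line and colours limited at 2.5. The upper blocks are mostly red in ΔAgo2 tumors and mostly blue in wild-type tumors 2 to 4, and the signalling genes are paler, with Ifngr1 and Socs1 lower in most ΔAgo2 tumors.

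The other IFN-inducible GTPases, which comprise the immunity-related GTPases that work with the GBPs, the antiviral Mx proteins and the very large inducible GTPase Gvin1, are given beside the family. All 13 were tested, 1 passed as higher by edgeR and 0 as lower, and all 13 log2 fold changes were positive with a median of 1.24. Mx1 is part of the IFN signature that the study chose on these tumors, so its direction is not independent evidence. Iigp1, which loads onto parasite vacuoles, passed, with 22.1, 9.29, 8.23 and 8.31 CPM in wild-type and 28.9, 54.3, 30.1 and 31.0 CPM in ΔAgo2 tumors (log2 fold change 1.58 ± 0.37, edgeR adjusted p = 0.0456). Its groups did not overlap, and as for Gbp2 and Gbp3 wild-type tumor 1 lay apart. With the GC correction the value was 0.74 with an adjusted p of 0.196. Gm4951 (2.00 ± 0.51, adjusted p = 0.0592) and Gm12250, which encodes Irgb10 (1.66 ± 0.45, adjusted p = 0.0665), had the largest values and did not pass edgeR's test. DESeq2 called 7 of the 13 and limma voom 3.

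Among 12 inflammasome and related genes, grouped here as defence partners of the GBPs, 1 passed as higher by edgeR and the median log2 fold change was 0.48. Naip5, a sensor of bacterial flagellin, rose from 2.73 ± 0.60 CPM in wild-type to 8.15 ± 2.81 CPM in ΔAgo2 tumors (SD, n = 4; log2 fold change 1.56 ± 0.32, edgeR adjusted p = 0.0305). Its groups were apart, and without a library the adjusted p ran from 0.0148 to 0.103. Casp4, which encodes caspase-11, had a log2 fold change of 1.39 ± 0.42 (adjusted p = 0.0872), and Naip2, a sensor of bacterial secretion systems, of 1.29 ± 0.40 (adjusted p = 0.0923). Gsdmd, the pore-forming gasdermin, and Nlrp3, both named after their values were seen, stood at 0.02 ± 0.25 and -0.04 ± 0.21, and over the alternatives their values ran from -0.14 to 0.39 and from -0.15 to 0.17. After adjustment DESeq2 called 4 of the 12 and limma voom 3, all higher.

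The genes that place GBPs on membranes did not pass. Of 11 genes of the autophagy-related machinery that directs GBPs to vacuoles 0 were called by edgeR, while 1 was higher and 0 were lower by the unadjusted p at 0.05. DESeq2 called 0 and limma voom 2 higher and 2 lower. Their median log2 fold change was 0.03, and the values furthest from 0 were 0.63 ± 0.38 for Atg5 and 0.60 ± 0.20 for Atg12, both part of the LC3 conjugation complex, and -0.37 ± 0.41 for Map1lc3a, an LC3 gene, whose sign turned with the GC correction. Of 6 genes for prenylation, the lipid modification that anchors Gbp2, Gbp2b and Gbp5, 0 were called by DESeq2, limma voom or edgeR, while 1 was higher and 0 were lower by its unadjusted p at 0.05. Pggt1b, a subunit of the geranylgeranyl transferase, had 0.69 ± 0.28, the protease Rce1 -0.50 ± 0.33 and the protease Zmpste24 0.50 ± 0.33. With the GC correction Rce1 stood at 0.00 and Zmpste24 at -0.06.

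The genes whose pattern over the 8 tumors was nearest to the clusters were named by the root-mean-square difference between log2 CPM values centred on each gene's mean, among 13065 genes. Nearest to the chromosome 3 members were Gm14137 (0.19), Iigp1 (0.21), Parp14 (0.21), Rasgrp1 (0.21) and Lipg (0.22). Nearest to the chromosome 5 members were Gm19951 (0.25), Gm20559 (0.26), Iigp1 (0.28), Oas2 (0.30) and Rasgrp1 (0.31). Iigp1 and Rasgrp1 thus stood in both sets. The points share the libraries and their depths, and the distances are descriptions.

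Markers of the cells that tumors can hold moved with the genotype in part. Counts of genes called are by edgeR unless a tool is named, and ranges are those of the summed level over a list. Of 4 pan-leukocyte genes 0 were called, from 421 to 852 CPM in wild-type and from 395 to 703 CPM in ΔAgo2 tumors, with log2 fold changes of 1.12 ± 0.33 for Ptprc, which encodes CD45 (edgeR adjusted p = 0.0785), 1.07 for Cd53, -0.05 for Laptm5 and -0.88 for Coro1a. Of 7 macrophage genes 0 were called, from 1675 to 2074 CPM and from 1433 to 3056 CPM, and in ΔAgo2 tumors other than tumor 1 the highest sum was 1732 CPM. Of 11 T and NK cell genes 0 were called, from 13.5 to 30.2 CPM and from 24.6 to 59.7 CPM. Tumors other than tumor 1 did not exceed 25.6 CPM in wild-type and 28.2 CPM in ΔAgo2. All 11 log2 fold changes were positive, with a median of 0.52. Some, such as those of Cd3d and Cd3e, turned sign when 1 library was left out. For Ncr1, Gzmb and Prf1 every ΔAgo2 tumor lay above every wild-type tumor in CPM, as for 8.06% of all genes tested. The ranges of all 3 lists overlapped between the genotypes.

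The summed level of 5 fibroblast genes was lower, from 4749 to 7113 CPM in wild-type and from 2155 to 4511 CPM in ΔAgo2 tumors. Most of this sum was Col3a1, from 3760 to 5747 CPM in wild-type and from 1406 to 3699 CPM in ΔAgo2 tumors. Of the 5 genes 0 were called, with 3 negative log2 fold changes (Col1a1, Col1a2 and Col3a1) and 2 positive ones (Dcn and Pdgfra). The 5 muscle genes ran from 196 to 2963 CPM and from 33.4 to 162 CPM, with 0 called, and wild-type tumors other than tumor 3 did not exceed 413 CPM. Neither pair of ranges overlapped. Of 5 keratinocyte genes 1 was called (Krt10, higher), and the list ran from 9.35 to 539 CPM and from 424 to 827 CPM. Its lowest sum came from the same wild-type tumor 3, and the other wild-type tumors ran from 144 to 539 CPM. At an unadjusted p under 0.05 edgeR gave 1 leukocyte, 1 macrophage, 3 T and NK cell, 1 fibroblast and 2 keratinocyte genes higher, and 1 macrophage, 3 fibroblast and 5 muscle genes lower. After adjustment DESeq2 called 1 leukocyte, 1 T and NK cell and 1 keratinocyte gene higher, 2 fibroblast and 2 muscle genes lower, and 0 macrophage genes, and limma voom called 1 leukocyte, 1 fibroblast and 2 keratinocyte genes higher, 3 macrophage, 2 fibroblast and 1 muscle gene lower, and 0 T and NK cell genes. The lists for dendritic cells (12.0 to 17.5 CPM in wild-type, 8.996 to 13.6 CPM in ΔAgo2 tumors), neutrophils (24.9 to 61.7 and 40.5 to 66.7 CPM), B cells (1.00 to 2.81 and 1.11 to 3.38 CPM) and endothelium (77.2 to 119 and 79.3 to 107 CPM) had 0 genes called, and 1 dendritic gene lower with 0 of the others at an unadjusted p under 0.05. DESeq2 called 1 dendritic gene lower, and limma voom 1 dendritic gene lower and 1 neutrophil gene in each direction. The part of these cells in the GBP values was not tested.

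As for the line itself, 4 of 5 lung markers fell under the count filter, Nkx2-1 and Sftpa1 had 0 counts in all libraries, and Napsa passed it, the list summing to 9.49 to 16.2 CPM in wild-type and 9.42 to 17.4 CPM in ΔAgo2 tumors. The 5 epithelial genes summed to between 499.8 and 1259 CPM and between 716 and 1248 CPM, with 0 called, an unadjusted p under 0.05 for 2 higher and 0 lower genes, and 2 called higher with either DESeq2 or limma voom.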

How the data were processed

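Total RNA from 8 tumors was made into stranded mRNA libraries and sequenced as paired reads of 100 bases. The authors deposited raw gene counts, whole numbers with no normalization, and TPM, in which counts are divided by gene length and scaled to the same total in each library. Per the labels, their processing names STAR and mm10. The strand setting and the treatment of multi-mapping reads are not given in the sources used here. Identifiers were matched to GENCODE M21 (99.3% with their version, 93 of 55487 unmatched).

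Counts were analysed with edgeR 4.0.16 in R 4.3.3 (filterByExpr, TMM, quasi-likelihood test without covariates, Benjamini-Hochberg adjustment, threshold 0.05). CPM uses TMM-scaled totals, and log2 CPM a prior count of 2. SE is the log2 fold change over the square root of F. TPM was used for levels and, as log2(TPM + 1) or log2(TPM + 0.1), in limma 3.58.1. Alternatives were other scalings and filters, DESeq2 1.42.0, limma voom, equal depth, a GC correction, the replicate number as a block, and each library left out. The procedure was tested on simulated data.

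Genes named were the 10 GBPs, Ago2, the IFNγ signalling genes, those called in each other list (the largest changes where fewer than 3 passed), and the 5 nearest in pattern with at least 1 CPM. The members and lists were chosen with earlier results of these data known. A signalling gene in the design is not reported here.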

Additional observations from a re-analysis of the deposited data

Results flagged for a closer look

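A tumor was set apart where its distance to the nearest of the other 3 tumors of its genotype took more of the group's range than Dixon's critical value allows. Of 104 groups of 4 examined, 13 were so marked, and chance marks about 1 in 20, or 5.2 here, although the genes share their libraries.

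Wild-type tumor 1 stood above the other wild-type tumors for Gbp3 (19.1 CPM against 7.67 to 8.55), Gbp2 (92.8 CPM against 32.8 to 36.8), Gbp10 (0.262 CPM against 0 to 0.021) and Iigp1 (22.1 CPM against 8.23 to 9.29). ΔAgo2 tumor 2 stood above its group for Iigp1 (54.3 CPM against 28.9 to 31.0) and for the share of Gbp4 in the family (2.41% against 1.76% to 1.87%).

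ΔAgo2 tumor 1 stood above its group for Ifng (0.718 CPM against 0.101 to 0.179), Irf1 (165 CPM against 94.9 to 104), Socs1 (40.8 CPM against 15.7 to 17.3), Map1lc3a (165 CPM against 69.1 to 84.3) and Rce1 (69.8 CPM against 31.6 to 36.3). Wild-type tumor 4 stood above its group for Ifng (0.716 CPM against 0.0953 to 0.189), and ΔAgo2 tumor 4 below its group for Irf9 (42.7 CPM against 52.2 to 52.7). The GBP genes of ΔAgo2 tumor 1 were not among those set apart.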

How the results depend on the processing

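The 8 GBP genes tested had a positive log2 fold change in all 173 values over 22 alternatives (0.49 to 2.55), and each stayed above the median of all genes in the same fit. The calls were less stable. The number of GBP genes called higher, 2 by edgeR, was 5 with DESeq2, 4 with limma voom, 5 with no count filter, 1 with the GC correction, and 0 with total counts as scaling, with limma on log2(TPM + 1), with log2(TPM + 0.1) and with no TPM filter. With 1 library left out it was 4 without ΔAgo2 tumor 1, 3 without wild-type tumor 1 and 0 in every other such fit. It was also 0 without the shallowest and the deepest library together, an alternative chosen after seeing the data. In the fits with 0 calls, between 5 and 8 members had an unadjusted p under 0.05, as had 12.0% to 30.2% of all genes. The share of all genes called higher moved as well, with 1.36% by edgeR, 1.70% with no count filter and 1.94% with the GC correction. Without 1 library that share ran from 0.123% to 6.01%, the highest being without ΔAgo2 tumor 1, and it was 0.0496% without both extreme libraries. The other GTPases called, 1 by edgeR, were 7 with DESeq2, 3 with limma voom, 5 with no count filter, 0 with total counts, the GC correction, the TPM fits and without both extreme libraries, and from 0 to 10 without 1 library. The defence partners called, 1 by edgeR, were 4 with DESeq2, 3 with limma voom, 2 with no count filter, 0 in the TPM fits and without both extreme libraries, and from 0 to 4 without 1 library. Limma voom also called 3 IFNγ signalling and 4 vacuole loading genes against 0 by edgeR, in a fit that called 27.9% of all genes against 3.49%, and gave a chromosome 3 median of 0.76 against 1.29. Without 1 library that median ran from 1.16 to 1.76. The cause of these changes was not tested. Over the genes tested, deviations of same-numbered tumors correlated between -0.29 and 0.10, and 0 of 8 libraries correlated best with their own number. With 4 tumors per genotype these values cannot decide whether same-numbered tumors were paired. With the replicate number as a block 70 genes were called against 560, with 0 GBP genes, 0 other GTPases and 0 defence partners, and with the block and the GC correction 2, 3 and 0 were called. With the TPM filter, log2(TPM + 1) and log2(TPM + 0.1) moved the median of all genes to 0.21 and 0.28 from 0.04, and with no TPM filter it was 0.03.

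Signs turned for 6 genes of the naming rule that did not pass, and for Gsdmd and Nlrp3, whose ranges stand with their values. Irf1 ran from -0.11 to 0.23 without 1 library. Irf8 was 0.26 with the GC correction, 0.25 with the block and GC correction, 0.057 and 0.061 with log2(TPM + 1) and log2(TPM + 0.1) (0.057 with no TPM filter) and 0.079 without both extreme libraries. Map1lc3a was 0.48, 0.47 and 0.048 with the GC correction, the block and GC correction, and without both extreme libraries, Zmpste24 was -0.063 and -0.044 with either GC fit, and Socs1 (0.013) and Rce1 (0.003) turned with the GC correction. Gbp2b, Gbp10, Gbp11 and Ifng fell under edgeR's count filter. Gbp10 had a log2 fold change of 0.19 with no count filter and 0.32 with DESeq2.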
